A study of Homo sapiens with 12 samples.

Results

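Cytosolic and mitochondrial chaperones and their co-chaperones were examined in RCC4 cells, an established human kidney carcinoma line of the clear cell type, which has no working VHL protein. The members were 43 listed genes: the heat shock transcription factors, the HSP70, HSP110, HSP90, HSP60 and small heat shock proteins, the J-domain and BAG co-chaperones, and the co-chaperones of HSP90. Chaperones of the endoplasmic reticulum were left out. A member counted as measured when at least 1 probe set was annotated to that gene alone, and where there were several, the brightest on average across the 12 arrays stood for it. By this rule 38 of the 43 members were measured, among 11963 genes measured in all. HSPA1A, HSPA1B and HSPA8 had only probe sets that also list other genes and were not used here. HSF2 and AHSA1 were not analysed here. The measured members were sorted by general knowledge of these genes into 14 inducible ones (of 17 listed), which heat or misfolded protein is known to raise, 18 constitutive ones (of 19), 5 mitochondrial ones (of 5) and the regulator HSF1 (1 of 2 regulators). The mitochondrial class was formed by location, whether or not heat raises a gene, so it is not a class of uninducible genes.

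The 4 groups had 3 arrays each. They were RCC4 cells with VHL put back (VHL cells) kept for 6 h in DMEM without cystine, VHL cells kept for 6 h in full control DMEM, RCC4 cells with an empty vector (Vec cells) in the deprived medium, and Vec cells in the control medium. Cells import cystine, a disulfide of 2 cysteines, to make glutathione and protein, and VHL recruits the hypoxia-inducible factors to a ubiquitin ligase so that they are degraded. Both media held 10% serum and antibiotics per the labels, which name dialysed serum only for the deprived medium. A change of serum therefore cannot be told apart from the loss of cystine. The labels do not say whether the VHL and Vec lines are single clones or pools, so the effect of VHL cannot be told apart from other differences between the 2 lines. The replicates are called biological without mention of separate cultures, and the p-values measure only the spread between these arrays, which may be technical.

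Chaperones bind unfolded protein and let it fold or hand it to degradation. HSP70 proteins work in a cycle of ATP hydrolysis that J-domain proteins start and that BAG and HSP110 proteins end by exchanging the nucleotide. STIP1 passes clients from HSP70 to HSP90, which finishes the folding of kinases and receptors with the help of CDC37, PTGES3, FKBP4, FKBP5 and CHORDC1. In mitochondria HSPA9 draws imported proteins in, and the HSPD1 barrel with its lid HSPE1 folds them. HSF1 is the transcription factor that raises the inducible members: it is held inactive by chaperones and, when they are busy with unfolded protein, binds heat shock elements, inverted repeats of the letters GAA in promoters. In kidney carcinoma cells these genes are expressed without heat as well.

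The promoters of the members bear on HSF1, so the upstream parts of 5 windows are shown, for the member with the largest fall (CHORDC1), a J-domain protein that fell (DNAJB1), the inducible and the constitutive HSP90 (HSP90AA1, HSP90AB1) and the mitochondrial HSPD1. The sequences come from RefSeq on build GRCh38.p14 and are the 250 bases before an annotated start, read 5′ to 3′ on the strand of the gene. Capitals mark every match to GAANNTTC or TTCNNGAA, which are 2 inverted GAA units. Each of these motifs is its own reverse complement, so both strands are covered, and neighbouring matches can overlap.

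CHORDC1 (chr11:90223050-90223299, minus strand): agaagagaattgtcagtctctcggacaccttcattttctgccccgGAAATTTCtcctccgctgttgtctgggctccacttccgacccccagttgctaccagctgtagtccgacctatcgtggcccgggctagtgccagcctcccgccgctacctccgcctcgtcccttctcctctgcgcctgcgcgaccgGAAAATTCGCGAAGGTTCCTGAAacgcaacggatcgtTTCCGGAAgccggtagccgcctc

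DNAJB1 (chr19:14518398-14518647, minus strand): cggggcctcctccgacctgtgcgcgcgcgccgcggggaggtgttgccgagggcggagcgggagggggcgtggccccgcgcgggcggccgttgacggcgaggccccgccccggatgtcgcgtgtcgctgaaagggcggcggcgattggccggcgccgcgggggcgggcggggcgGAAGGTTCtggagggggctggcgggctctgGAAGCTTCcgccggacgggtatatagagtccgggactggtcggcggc

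HSP90AA1 (chr14:102087045-102087294, minus strand): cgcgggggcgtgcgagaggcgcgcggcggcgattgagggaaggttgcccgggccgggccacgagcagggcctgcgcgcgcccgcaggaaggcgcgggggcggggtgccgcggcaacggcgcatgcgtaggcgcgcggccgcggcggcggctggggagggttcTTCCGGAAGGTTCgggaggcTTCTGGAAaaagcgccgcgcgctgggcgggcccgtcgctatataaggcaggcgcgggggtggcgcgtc

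HSP90AB1 (chr6:44247693-44247942, plus strand): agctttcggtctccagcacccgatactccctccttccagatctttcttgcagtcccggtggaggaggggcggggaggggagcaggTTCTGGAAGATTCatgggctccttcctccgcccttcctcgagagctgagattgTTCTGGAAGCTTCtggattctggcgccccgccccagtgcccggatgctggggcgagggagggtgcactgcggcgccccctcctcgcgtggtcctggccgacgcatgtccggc

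HSPD1 (chr2:197499841-197500090, minus strand): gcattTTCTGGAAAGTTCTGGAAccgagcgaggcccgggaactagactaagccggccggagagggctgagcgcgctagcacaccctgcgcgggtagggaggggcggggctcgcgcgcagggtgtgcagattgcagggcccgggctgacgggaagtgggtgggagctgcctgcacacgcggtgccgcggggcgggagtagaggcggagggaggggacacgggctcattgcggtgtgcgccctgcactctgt

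The CHORDC1 window held 6 matches, at -205, -60, -55, -50, -45 and -23 from the start (-1 is the base before it), and the 4 matches from -60 to -45 ran into each other. The DNAJB1 window shown held 2 separate matches, at -77 and -47. HSP90AA1 had 3 matches, at -88, -83 and -68. The HSP90AB1 window, the third of its 3 windows in the table, held 4, at -165, -160, -112 and -107. Where a gene had several windows, the one with most matches is shown: of the 3 of DNAJB1 another held 1 match and the other none, and the second windows of HSP90AA1 and HSPD1 and the other 2 of HSP90AB1 held none. In the HSPD1 window shown 3 overlapping matches began at -245, -240 and -235. These lie at chr2:197500068-197500085, which is 43 bases outside the window of HSPE1, the neighbouring gene on the other strand, whose own window held no match.

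RefSeq windows of 300 bases (250 before a start and 50 after it) were at hand for 31 of the 38 measured members. STUB1, ST13, BAG4, HSF1, HSPB2, CRYAB and FKBP4 had none in the table used here. A 2-unit match stood in at least 1 window of 16 of the 31 members (51.6%), against 16.2% of the 27305 genes with a window. The share was 83.3% for the inducible members (10 of 12), 28.6% for the constitutive ones (4 of 14) and 40% for the mitochondrial ones (2 of 5). Matches to 3 units, GAANNTTCNNGAA or TTCNNGAANNTTC, stood in 7 of 31 members (22.6%) and in 0.608% of all genes with a window. By response, a 2-unit match stood in 8 of 13 members called lower after deprivation in both lines (61.5%) and in 8 of 18 others (44.4%). A 3-unit match stood in 3 of those 13 (23.1%) and 4 of those 18 (22.2%). Whether the motif goes with the fall was not tested. Counted over windows, 17 of 43 member windows (39.5%) and 13.5% of all 35116 windows held a 2-unit match. For inducible members it was 11 of 19 windows (57.9%), a smaller share than over their genes. BAG3 and HSPH1, both inducible, had none in these windows.

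The identity of the cells was checked with lists of marker genes. PAX8, PAX2, KRT8, KRT18, CDH6 and CDH16, genes of renal epithelium, averaged 10.9, 9.84, 11.2, 11.9, 11.4 and 8.62 log2 units over the 12 arrays. The 3 blood markers PTPRC, CD3E and CD14 and the 3 endothelial markers PECAM1, VWF and CDH5 averaged between 4.38 and 5.73, below 6.961, the 40th percentile of all gene means, which served as the mark of a dim gene. Of the 3 fibroblast markers, COL3A1 and DCN were also below that mark and COL1A1 averaged 8.04. Deprivation changed none of the 9 blood, endothelial and fibroblast markers in either line, and 1 of the 6 renal markers, CDH6, fell in VHL cells (-0.16 ± 0.05 on the log2 scale, limma adjusted p = 0.0433). The probe set of VHL did not differ between VHL and Vec cells by call (limma adjusted p = 0.475 in deprived and 0.0532 in control medium). Its place in the transcript is not known, so it does not check the labels. The renal markers were not all alike in the 2 lines. In deprived medium 2 of the 6 were called higher and 2 lower in VHL cells (log2 differences -0.65 to 1.22), beside 24.2% and 23.0% of all genes. In control medium 1 was called higher and 1 lower (-0.61 to 1.09), beside 23.1% and 23.0%.

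In VHL cells most inducible chaperones were lower after 6 h without cystine. Of 38 members 17 fell and 1 rose, while 655 of all 11963 genes fell (5.48%) and 737 rose (6.16%), 11.6% together. A gene was called when its limma p-value, adjusted by the Benjamini-Hochberg method over all 11963 genes, was under 0.05. By class, 11 of 14 inducible members, 5 of 18 constitutive members and 1 of 5 mitochondrial members fell. The median log2 difference, deprived minus control, was -0.41 for inducible, -0.03 for constitutive and -0.06 for mitochondrial members, beside 0.01 for all genes. The 3 deprived arrays lay below all 3 control arrays for 22 members (14.0% of all genes) and above them for 4 members (16.5% of all genes). After subtracting the median of every array, the calls over all genes were 550 higher and 873 lower, against 737 and 655 on the values as deposited. In RNA from whole cultures, fewer cells that express a gene and less RNA per cell cannot be told apart.

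In Vec cells, too, the members that passed the threshold were lower after deprivation. Of the 38, 13 fell and 0 rose, while 247 of all genes fell (2.06%) and 253 rose (2.11%), 4.18% together. An unadjusted limma p under 0.05 was reached by 19 members, 17 of them lower and 2 higher, and by 16.6% of all genes (8.08% lower). The fallen members were 9 of 14 inducible, 3 of 18 constitutive and 1 of 5 mitochondrial. Class medians were -0.26 for inducible, -0.05 for constitutive and -0.01 for mitochondrial members, beside 0.01 for all genes, and all 14 inducible members had a difference below 0. The deprived arrays lay below all control arrays for 18 members (10.7% of all genes) and above them for 3 (11.9% of all genes).

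**Figure D1:**
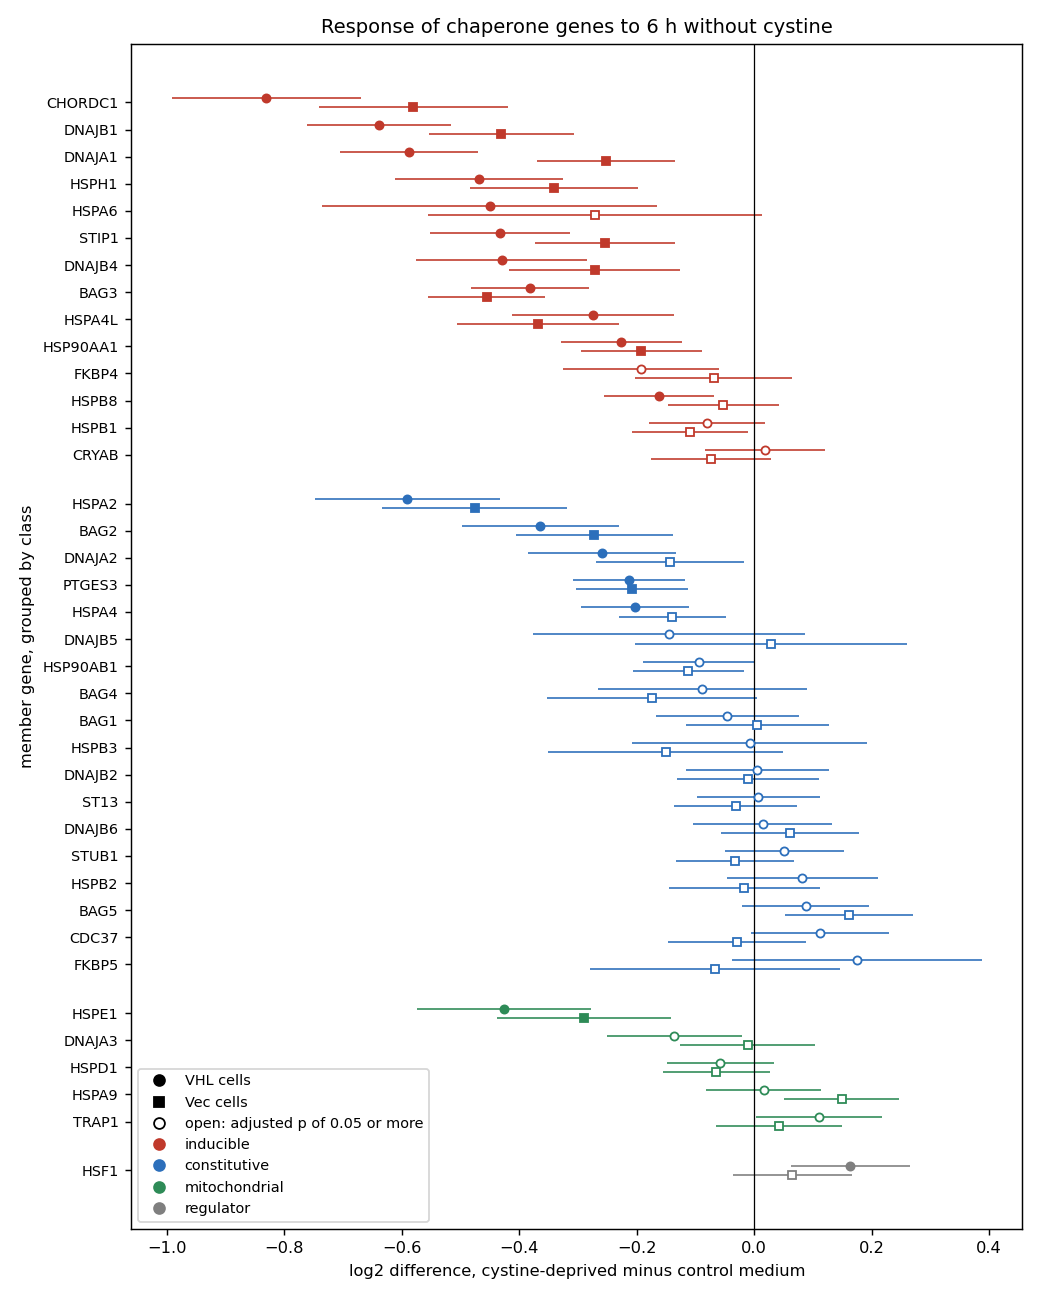
Log2 difference between cystine-deprived and control medium (x axis, log2 units) for each of the 38 measured members (y axis), grouped by class, with VHL cells as circles above Vec cells as squares, bars for the 95% confidence interval of the limma fit and filled symbols for adjusted p under 0.05. Filled symbols to the left of 0 are 17 members in VHL cells and 13 in Vec cells, and HSF1 in VHL cells is the only filled symbol to the right of 0.

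The 13 members that fell in Vec cells were all among the 17 that fell in VHL cells, which is 100% of the first list and 76.5% of the second. The 2 comparisons share no array. Over all genes 147 fell in both lines, which is 59.5% of those that fell in Vec cells, 22.4% of those that fell in VHL cells and 1.23% of all genes tested. The difference was larger in VHL cells for 11 of the 13 members and for 92 of the 147 genes. Across the 38 members the differences in the 2 lines had a Pearson correlation of 0.879, and across all genes 0.602, as a description, since genes are not independent replicates and each gene is read by the same probe set in both lines. DNAJA2, HSPA4, HSPA6 and HSPB8 passed the threshold in VHL cells only by call, and the differences between lines are given further on.

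**Figure D2:**
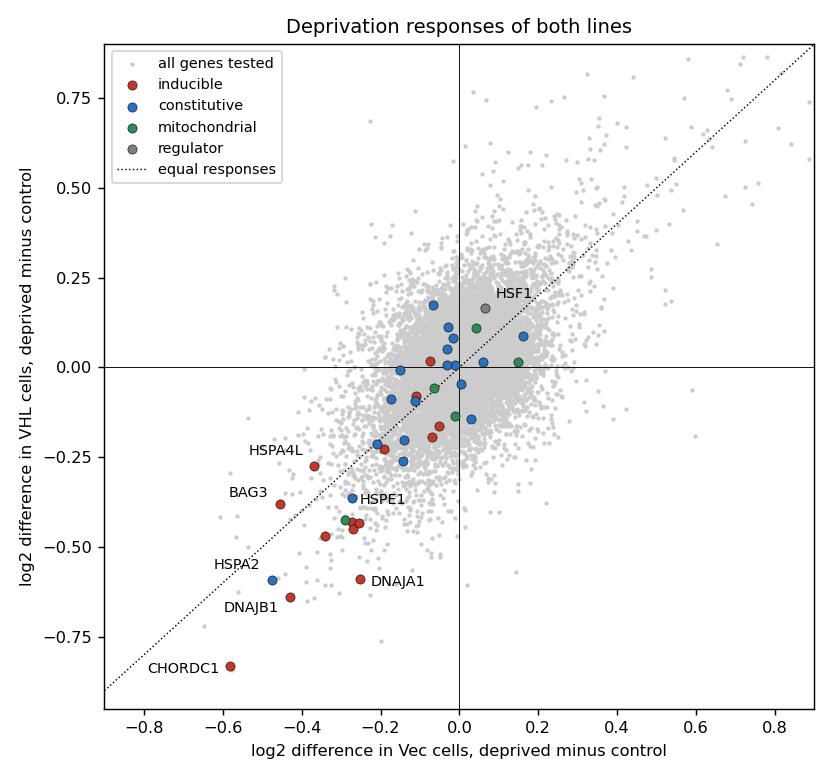
Log2 difference between deprived and control medium in Vec cells (x axis) against that in VHL cells (y axis), in log2 units, with 1 point per gene: members coloured by class over all genes tested in grey, 34 of which lie outside the axes. CHORDC1 lies lowest among the members in both lines, and most inducible members lie below the dotted line of equal responses.

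CHORDC1, a co-chaperone of HSP90 with zinc-binding CHORD domains, had the largest fall of any member. It read 9.02, 9.03 and 9.05 in deprived VHL cells, against 9.97, 9.86 and 9.77 in control VHL cells. In Vec cells it read 9.18, 9.20 and 9.29 when deprived, against 9.70, 9.99 and 9.72 in control medium. The deprived arrays of both lines lay below every control array, with a gap wider than the spread within any group. The fall was 0.83 ± 0.07 in VHL cells (1.78-fold, SE from the limma fit, adjusted p = 1.58e-05) and 0.58 ± 0.07 in Vec cells (adjusted p = 0.000666). Ordered by log2 difference, CHORDC1 was 3rd from the lowest of all 11963 genes in VHL cells and 4th in Vec cells.

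Among J-domain proteins the 3 inducible members fell in both lines, DNAJB4 in Vec cells only narrowly. DNAJB1, the main partner of inducible HSP70, read 10.24, 10.28 and 10.28 in deprived VHL cells, against 10.90, 10.90 and 10.93 in control VHL cells. It read 10.54, 10.57 and 10.76 in deprived and 11.02, 11.04 and 11.10 in control Vec cells. The deprived arrays did not overlap the control arrays in either line, and the fall was 0.64 ± 0.06 in VHL cells (limma adjusted p = 1.46e-05) and 0.43 ± 0.06 in Vec cells (0.000832). DNAJA1, a J-domain protein that escorts HSP70 clients, read 10.88, 10.95 and 10.98 in deprived VHL cells, against 11.57, 11.55 and 11.45 in control VHL cells. Its values in Vec cells were 11.44, 11.47 and 11.60 deprived and 11.76, 11.75 and 11.74 control. In the deprived medium VHL cells were lower than in any other group, and deprived Vec cells were about level with control VHL cells. The fall was 0.59 ± 0.05 in VHL cells (limma adjusted p = 2.2e-05) and 0.25 ± 0.05 in Vec cells (0.022).

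DNAJB4, a relative of DNAJB1, read 8.44, 8.50 and 8.59 in deprived VHL cells, against 8.92, 9.01 and 8.90 in control VHL cells, and 8.09, 7.99 and 7.98 in deprived Vec cells, against 8.27, 8.43 and 8.17 in control Vec cells. No deprived array reached the controls of its line. It fell by 0.43 ± 0.07 in VHL cells (limma adjusted p = 0.00142) and by 0.27 ± 0.07 in Vec cells (0.0417). The call in Vec cells was lost with quantile normalization (limma adjusted p = 0.0525), with the replicate number as a block (0.0576) and in a fit on the compared groups only (0.0881). It was also lost among the 8369 genes left without probe sets that may bind several transcripts (0.0534). DNAJB4 kept the same probe set and the same difference there. With p-values adjusted over all probe sets, the brightest did not pass in Vec cells (limma adjusted p = 0.0512). A dimmer second probe set of DNAJB4 did, at -0.37 (0.00842). Of the constitutive J-domain proteins, DNAJA2 fell by 0.26 ± 0.06 in VHL cells (limma adjusted p = 0.0131), where it averaged 10.71 ± 0.10 deprived and 10.97 ± 0.06 control (SD, n = 3 each). DNAJB2, DNAJB5 and DNAJB6 were not called in either line.

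HSP110 proteins, which recharge HSP70 with ATP, fell in both lines where they are inducible. HSPH1 read 11.50, 11.72 and 11.75 in deprived VHL cells, against 12.13, 12.11 and 12.13 in control VHL cells, and 11.08, 11.14 and 11.17 in deprived Vec cells, against 11.42, 11.56 and 11.43 in control Vec cells. Deprived VHL replicate 1 stood apart as the lowest of its group, and no deprived array reached the controls of its line. The fall was 0.47 ± 0.07 in VHL cells (limma adjusted p = 0.000655) and 0.34 ± 0.07 in Vec cells (0.0121). HSPA4L, a testis-enriched HSP110, read 8.28, 8.38 and 8.33 in deprived VHL cells, against 8.66, 8.59 and 8.55 in control VHL cells, and 8.04, 8.19 and 7.95 in deprived Vec cells, against 8.50, 8.37 and 8.41 in control Vec cells. The groups did not overlap within either line. Its fall was 0.27 ± 0.06 in VHL cells (limma adjusted p = 0.0156) and 0.37 ± 0.06 in Vec cells (0.00603), the larger of the pair being in Vec cells. HSPA4, the constitutive HSP110, fell by 0.20 ± 0.04 in VHL cells (limma adjusted p = 0.00843) on its brightest probe set, and without probe sets that may bind several transcripts it was at -0.07 (0.547).

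The HSP70 members other than HSPA1A, HSPA1B and HSPA8 were HSPA2, HSPA6 and the mitochondrial HSPA9. HSPA2, an HSP70 best known from spermatogenesis, is dim in these cells. It read 6.74, 6.73 and 6.77 in deprived VHL cells, against 7.39, 7.22 and 7.42 in control VHL cells, and 6.32, 6.19 and 6.23 in deprived Vec cells, against 6.82, 6.79 and 6.56 in control Vec cells. The groups did not overlap within either line, with a fall of 0.59 ± 0.07 in VHL cells (limma adjusted p = 0.000235) and 0.48 ± 0.07 in Vec cells (0.00246). A dim probe set can understate a fold change, since part of its signal is background. HSPA6, the strictly stress-inducible HSP70, read 7.22, 6.94 and 6.73 in deprived VHL cells, against 7.30, 7.58 and 7.36 in control VHL cells, and 8.71, 8.66 and 8.27 in deprived Vec cells, against 8.92, 8.80 and 8.74 in control Vec cells. The spread within deprived groups was wide, and the call was made in VHL cells only (-0.45 ± 0.13, limma adjusted p = 0.0439). HSPA6 has a near-identical pseudogene, HSPA7, whose transcripts its probe sets may also bind, so its values are uncertain.

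Of the BAG proteins, which release nucleotide and client from HSP70, BAG2 and BAG3 fell in both lines and the other 3 were not called. BAG3, the inducible member that routes clients to selective autophagy, read 11.08, 11.11 and 11.08 in deprived VHL cells, against 11.48, 11.48 and 11.45 in control VHL cells. Its values were 11.19, 11.15 and 11.29 in deprived Vec cells, against 11.69, 11.66 and 11.65 in control Vec cells. Spread within groups was smaller than the gap in each line. The fall was 0.38 ± 0.05 in VHL cells (limma adjusted p = 0.000214) and 0.46 ± 0.05 in Vec cells (8.07e-05), the smallest adjusted p of any member in Vec cells. BAG2, which inhibits the ubiquitin ligase STUB1, read 9.73, 9.81 and 9.65 in deprived VHL cells, against 10.10, 10.08 and 10.10 in control VHL cells, and 8.94, 8.96 and 9.08 in deprived Vec cells, against 9.27, 9.37 and 9.17 in control Vec cells. Within each line the groups did not overlap, and control Vec cells lay below deprived VHL cells. It fell by 0.36 ± 0.06 in VHL cells (limma adjusted p = 0.00246) and by 0.27 ± 0.06 in Vec cells (0.0274). BAG5 differed by 0.16 ± 0.05 in Vec cells on its brightest probe set, with no overlap of the groups (limma adjusted p = 0.101). Its second probe set went the other way, at -0.10 (limma adjusted p = 0.706 over all probe sets).

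**Figure D3:**
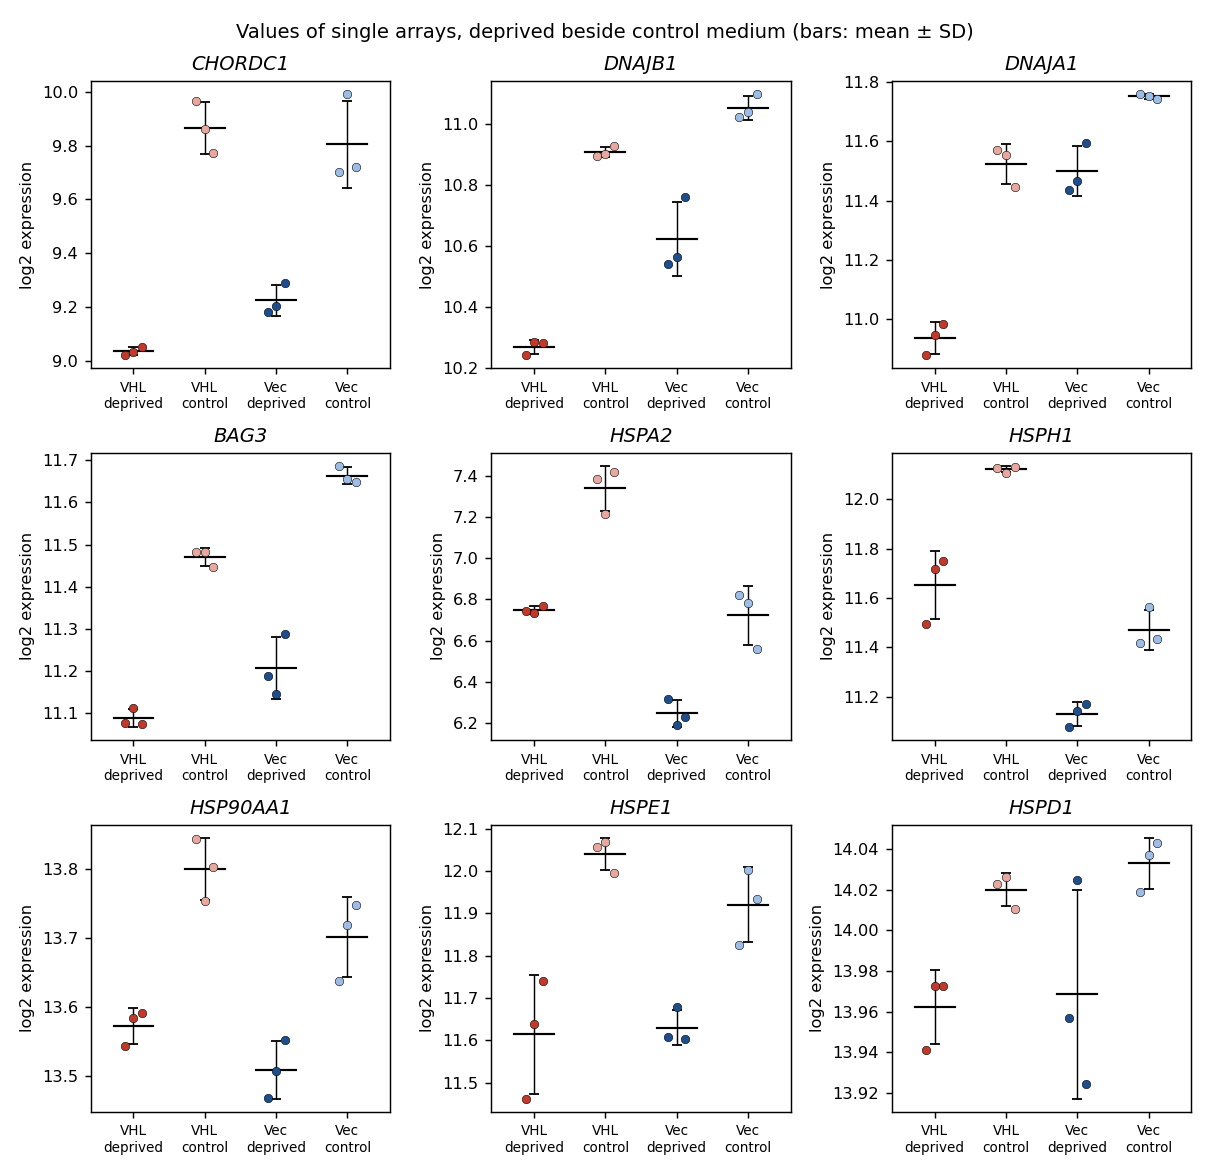
Log2 expression on single arrays (points, y axis in log2 units) for 9 members in deprived and control VHL cells and in deprived and control Vec cells, with the mean as a line and the SD (n = 3) as a bar; each y axis has its own range and does not start at 0. For CHORDC1, DNAJB1, DNAJA1, BAG3, HSPA2, HSPH1, HSP90AA1 and HSPE1 every deprived array lies below every control array of its line, while for HSPD1 the Vec groups overlap.

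The cytosolic HSP90 genes differed by little on their brightest probe sets. The call of HSP90AA1 in VHL cells held under every alternative run. Its call in Vec cells and the calls of HSP90AB1 depended on the setting. HSP90AA1, the inducible cytosolic HSP90, read 13.54, 13.58 and 13.59 in deprived VHL cells, against 13.84, 13.75 and 13.80 in control VHL cells, and 13.47, 13.51 and 13.55 in deprived Vec cells, against 13.64, 13.72 and 13.75 in control Vec cells. The groups did not overlap, with a fall of 0.23 ± 0.05 in VHL cells (limma adjusted p = 0.00892) and 0.19 ± 0.05 in Vec cells (0.0413). HSP90AB1, the constitutive paralog, read 13.36, 13.28 and 13.30 in deprived VHL cells, against 13.37, 13.45 and 13.40 in control VHL cells, and 13.33, 13.38 and 13.35 in deprived Vec cells, against 13.47, 13.47 and 13.46 in control Vec cells. Its differences of -0.09 ± 0.04 in VHL cells (limma adjusted p = 0.186) and -0.11 ± 0.04 in Vec cells (0.201) did not pass the threshold, although no deprived array reached the controls of its line. A dimmer second probe set of HSP90AB1 did pass it, at -0.22 in VHL cells (adjusted p = 0.0147 over all probe sets, limma) and -0.21 in Vec cells (0.0365). With the mean of its probe sets HSP90AB1 was called lower in VHL cells (adjusted p = 0.0245) and in Vec cells (0.0398), as it was with the variance allowed to follow the level (0.0387 and 0.0287). The call of HSP90AA1 in Vec cells was lost with the replicate number as a block (limma adjusted p = 0.0549) and in a fit on the compared groups only (0.108). It was also lost among the 8369 genes left without probe sets that may bind several transcripts (0.0624). HSP90AA1 kept the same probe set and the same difference there. Both paralogs carry matches to the heat shock motif in the windows printed above.

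Of the co-chaperones of HSP90 besides CHORDC1, STIP1 and PTGES3 fell in both lines, and FKBP4, FKBP5 and CDC37 were not called in either on their brightest probe sets. STIP1, which bridges HSP70 and HSP90, read 9.92, 9.90 and 9.83 in deprived VHL cells, against 10.21, 10.36 and 10.38 in control VHL cells, and 10.21, 10.34 and 10.27 in deprived Vec cells, against 10.52, 10.52 and 10.54 in control Vec cells. The deprived arrays were the lower ones in each line, without overlap. It fell by 0.43 ± 0.06 in VHL cells (limma adjusted p = 0.000305) and by 0.25 ± 0.06 in Vec cells (0.0225). PTGES3, or p23, which stabilises the closed form of HSP90, read 12.82, 12.91 and 12.91 in deprived VHL cells, against 13.10, 13.11 and 13.06 in control VHL cells, and 13.09, 13.14 and 13.10 in deprived Vec cells, against 13.30, 13.35 and 13.31 in control Vec cells. Again no deprived array reached the controls of its line. The falls of 0.21 ± 0.04 in VHL cells (limma adjusted p = 0.00795) and 0.21 ± 0.04 in Vec cells (0.0192) were nearly the same. STUB1, a ubiquitin ligase that binds HSP70 and HSP90, and ST13, which holds HSP70 in its ADP form, were not called on their brightest probe sets.

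Small heat shock proteins, which hold unfolded protein without ATP, were mostly not called. HSPB8, the partner of BAG3, averaged 9.92 ± 0.02 in deprived and 10.09 ± 0.01 in control VHL cells (SD, n = 3 each), a fall of 0.16 ± 0.04 (limma adjusted p = 0.0301). HSPB1, HSPB2, HSPB3 and CRYAB were not called in either line. CRYAB, counted as inducible, read 12.52, 12.50 and 12.50 in deprived VHL cells, against 12.44, 12.46 and 12.55 in control VHL cells, so that the groups overlapped. The inducible members not called in VHL cells were CRYAB, HSPB1 and FKBP4, with log2 differences between -0.19 and 0.02.

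In the mitochondrial class HSPE1 fell and the 4 other members were not called. HSPE1, the lid of the HSP60 barrel, read 11.462, 11.640 and 11.740 in deprived VHL cells, against 12.056, 12.068 and 11.996 in control VHL cells, and 11.609, 11.678 and 11.604 in deprived Vec cells, against 11.826, 12.002 and 11.934 in control Vec cells. The fall was 0.43 ± 0.07 in VHL cells (limma adjusted p = 0.00173) and 0.29 ± 0.07 in Vec cells (0.0336). HSPD1, the barrel itself, read 13.94, 13.97 and 13.97 in deprived VHL cells, against 14.02, 14.03 and 14.01 in control VHL cells, and 13.96, 14.02 and 13.92 in deprived Vec cells, against 14.02, 14.04 and 14.04 in control Vec cells. The VHL groups lay close together without overlap, and the Vec groups overlapped. The difference was -0.06 ± 0.04 in VHL cells (limma adjusted p = 0.422) and -0.06 ± 0.04 in Vec cells (0.499), so the 2 subunits of the chaperonin gave different calls while their genes lie side by side. The chosen probe set of HSPD1 averaged 14.00, where the highest value of any probe set on any array was 14.79. The second probe set of HSPD1, at a mean of 13.16, differed by -0.19 in VHL cells (limma adjusted p = 0.0359 over all probe sets) and -0.15 in Vec cells (0.148).

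HSPA9, the mitochondrial HSP70, read 12.76, 12.82 and 12.80 in deprived VHL cells, against 12.79, 12.80 and 12.74 in control VHL cells, with overlap. In Vec cells it read 12.86, 12.93 and 12.91 deprived and 12.71, 12.81 and 12.73 control, a difference of 0.15 ± 0.05 that was above 0 with no overlap and did not pass the threshold (limma adjusted p = 0.0935). On their brightest probe sets HSPA9 and BAG5 did pass it when dim genes were left out of the test (adjusted p = 0.0334 and 0.0401). They also passed when the variance was allowed to follow the level (0.00799 and 0.0464). TRAP1, the mitochondrial HSP90, and DNAJA3, the mitochondrial J-domain protein, were not called. The median of the mitochondrial class rests on few genes. Without probe sets that may bind several transcripts only HSPA9 and TRAP1 remained, and HSPE1, the member that fell, dropped out. The median of those left was 0.08 in VHL cells and 0.10 in Vec cells.

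HSF1, the factor that drives the inducible members, read 8.16, 8.20 and 8.18 in deprived VHL cells, against 7.93, 8.03 and 8.08 in control VHL cells, and 8.35, 8.37 and 8.31 in deprived Vec cells, against 8.29, 8.26 and 8.29 in control Vec cells. On this probe set, the brighter one, the deprived arrays lay above the control arrays in both lines. The dimmer probe set of HSF1 was at -0.12 in Vec cells (limma adjusted p = 0.634 over all probe sets). The rise in VHL cells on the brighter probe set was 0.16 ± 0.05 (limma adjusted p = 0.0392), and the difference in Vec cells was 0.06 ± 0.05 (0.548). With the mean of its probe sets HSF1 was at 0.15 in VHL cells and not called (limma adjusted p = 0.164), and at -0.03 in Vec cells. The call in VHL cells did not hold with quantile normalization (adjusted p = 0.0519), with arrays centred on their medians (0.0696) or without any 1 of 5 of the 6 VHL arrays (0.0759 to 0.151), control replicate 3 being the exception. The activity of HSF1 is set on the protein and was not measured.

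The calls in Vec cells rest on few arrays. Without deprived replicate 1, or without control replicate 2, 5 members were called lower, and without any 1 of the other 4 Vec arrays 8 were, against 13 with all arrays. CHORDC1, DNAJB1, BAG3, HSPA2 and HSPA4L kept their calls throughout. The highest adjusted p without 1 array was 0.0585 for HSPH1, 0.0731 for PTGES3, 0.0927 for DNAJA1, 0.0941 for STIP1, 0.11 for BAG2, 0.128 for HSPE1, 0.14 for HSP90AA1 and 0.15 for DNAJB4, and each of these members stayed below 0. In VHL cells 13 members were called lower without control replicate 1, 14 without control replicate 2 and 15 without any 1 of the other 4 VHL arrays. HSPB8 lost its call without any 1 array (adjusted p 0.0619 to 0.0915), and HSPA6 without any array but deprived replicate 1 (up to 0.152). DNAJA2 lost its call without deprived replicate 1, control replicate 1 or control replicate 2 (up to 0.0542), and HSPA4L without replicate 1 of either VHL group (up to 0.0675).

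Other probe sets of the same members gave a further reading of the response, with p-values adjusted over all probe sets. DNAJB1, DNAJA1, HSPH1 and STIP1 were called lower in both lines on both of their probe sets. All 4 probe sets of HSP90AA1 were called lower in VHL cells, between -0.43 and -0.19, and 1 of the 4 in Vec cells, at -0.28 (limma adjusted p = 0.0157 over all probe sets). The 2 probe sets of HSPA6 differed by -0.45 and -0.40 in VHL cells. FKBP4 was called lower in VHL cells on its second probe set (-0.20, limma adjusted p = 0.0304) and not on its brightest (-0.19, 0.0741). ST13 had a second probe set that was called lower in VHL cells (-0.21, limma adjusted p = 0.0123), while its brightest was at 0.01. For HSPA4, 2 of 4 probe sets were called lower in VHL cells (-0.20 and -0.42), and 1 of the other pair was called lower in Vec cells (-0.35, limma adjusted p = 0.0294).

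Whether the response differs between the lines was tested with the interaction, the response of VHL cells minus that of Vec cells. None of the 38 members was called, while 16 of all genes were (0.134%). An unadjusted limma p under 0.05 was reached by 4 members, all inducible and all with the larger fall in VHL cells, and by 9.83% of all genes, so that 4 of 38 is close to the background. The difference for DNAJA1 was -0.34 ± 0.08 (95% interval -0.502 to -0.168, unadjusted p = 0.000836, limma adjusted p = 0.186). It was called in a fit whose variance follows the level (adjusted p = 0.0187), and over the other alternatives its adjusted p ran between 0.0798 and 0.379. The others were CHORDC1 at -0.25 ± 0.11 (limma adjusted p = 0.465), DNAJB1 at -0.21 ± 0.08 (0.421) and STIP1 at -0.18 ± 0.08 (0.476). The median of the interaction was -0.13 over the 14 inducible members, -0.12 over the 5 mitochondrial ones, 0.01 over the 18 constitutive ones and 0.01 over all genes. For DNAJA2, HSPA4, HSPA6 and HSPB8, called lower in VHL cells only, the interaction lay between -0.18 and -0.06 and was not called, so a difference between the lines was not shown.

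VHL and Vec cells differed in the chaperones they expressed, in both media. In deprived medium 14 members were higher and 11 lower in VHL cells, while 24.2% of all genes were higher and 23.0% lower, 47.2% together. In control medium 15 members were higher and 10 lower, against 23.1% of all genes higher and 23.0% lower, 46.1% together. The share of members that differed, 25 of 38 in either medium, is to be read against these shares of all genes. In both media alike, 13 members were higher and 9 lower in VHL cells, and of all genes 19.8% were higher and 19.2% lower in both.

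The small heat shock proteins CRYAB and HSPB2, whose genes are neighbours, were higher in VHL cells by more than any other member. CRYAB, the alpha B chain of crystallin, read 12.52, 12.50 and 12.50 in deprived VHL cells, against 9.27, 9.20 and 9.29 in deprived Vec cells. In control medium it read 12.44, 12.46 and 12.55 in VHL cells, against 9.33, 9.28 and 9.37 in Vec cells. The lines were far apart and the media alike, with a difference of 3.25 ± 0.05 in deprived medium (limma adjusted p = 3.83e-14) and 3.16 ± 0.05 in control medium (8.93-fold, adjusted p = 3.19e-14). Ordered by the difference in control medium CRYAB was 16th of all 11963 genes. HSPB2 read 9.39, 9.37 and 9.41 in deprived VHL cells, against 7.34, 7.24 and 7.26 in deprived Vec cells, and 9.22, 9.29 and 9.41 in control VHL cells, against 7.38, 7.30 and 7.21 in control Vec cells. It was 4.32-fold higher in VHL cells in deprived medium (limma adjusted p = 1.18e-11) and 4.04-fold higher in control medium (1.89e-11).

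**Figure D4:**
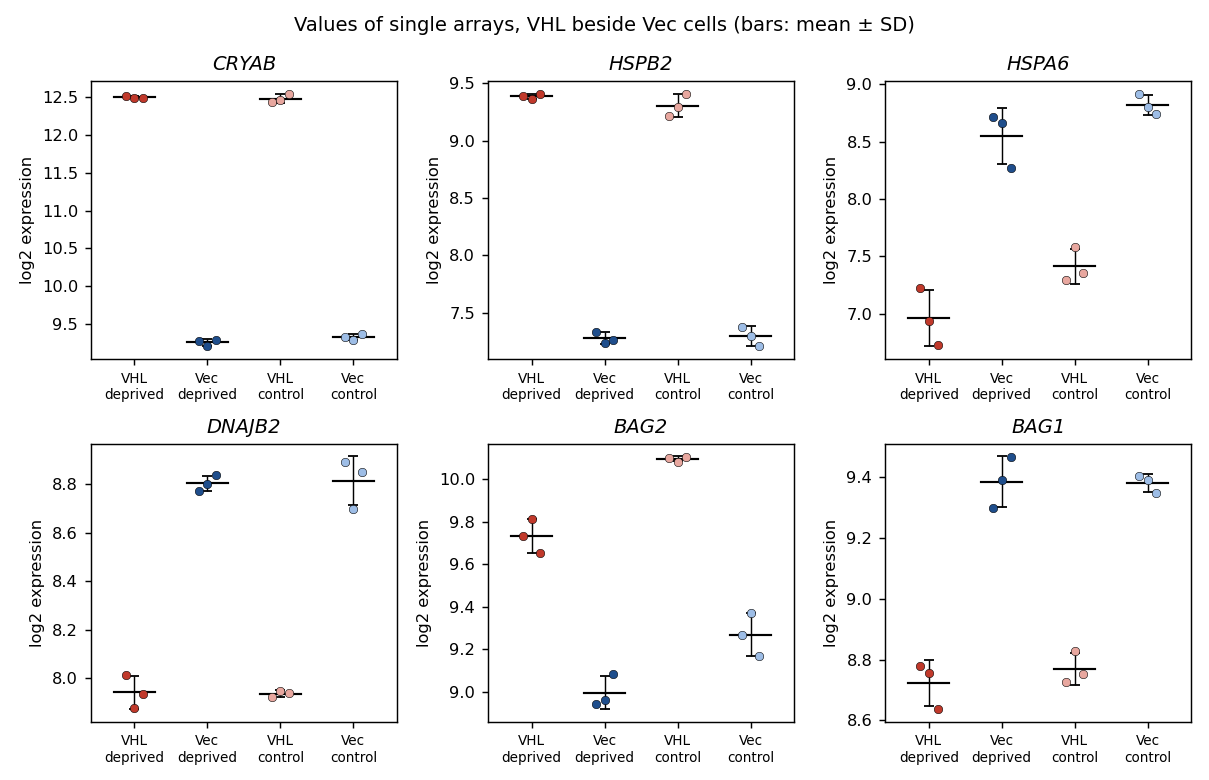
Log2 expression on single arrays (points, y axis in log2 units) for 6 members in VHL beside Vec cells, deprived medium at left and control medium at right of each panel, with the mean as a line and the SD (n = 3) as a bar; each y axis has its own range and does not start at 0. CRYAB, HSPB2 and BAG2 are higher and HSPA6, DNAJB2 and BAG1 lower in VHL cells in both media, with no overlap between the lines.

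HSPB1 and HSPB8 were also higher in VHL cells, HSPB1 by 0.40 ± 0.05 in deprived and 0.37 ± 0.05 in control medium (limma adjusted p = 6.35e-06 and 1.31e-05), and HSPB8 by 0.43 ± 0.04 and 0.54 ± 0.04 (2.24e-06 and 2.61e-07). HSPB3, a dim muscle gene, was not called. Of the 5 measured small heat shock proteins 4 were higher in VHL cells in both media, beside 19.8% of all genes.

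HSPA6 was lower in VHL cells, as the array values given above show: its VHL values in either medium lay below every Vec value. The difference was -1.59 ± 0.13 in deprived medium (limma adjusted p = 3.53e-07) and -1.41 ± 0.13 in control medium (2.65-fold lower, 1.09e-06), and its dimmer second probe set gave -1.23 and -1.05. CRYAB, HSPB2 and HSPA6 were the 3 members that differed at least 2-fold in control medium, as did 511 of all genes (4.27%). DNAJB2, a J-domain protein with ubiquitin-interacting motifs, read 8.01, 7.88 and 7.94 in deprived VHL cells, against 8.77, 8.80 and 8.84 in deprived Vec cells, and 7.92, 7.95 and 7.94 in control VHL cells, against 8.89, 8.70 and 8.85 in control Vec cells. It was lower in VHL cells by 0.86 in deprived and 0.88 in control medium on the log2 scale (differences -0.86 and -0.88, limma adjusted p = 3.52e-08 and 2.95e-08), and the deprived and control arrays overlapped within each line. BAG1, a BAG protein that links HSP70 to the proteasome, read 8.78, 8.75 and 8.64 in deprived VHL cells, against 9.30, 9.39 and 9.47 in deprived Vec cells, and 8.73, 8.83 and 8.75 in control VHL cells, against 9.40, 9.39 and 9.35 in control Vec cells. The differences were -0.66 ± 0.06 and -0.61 ± 0.06 (limma adjusted p = 4.37e-07 and 9.21e-07).

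Several members that fell under deprivation were nonetheless higher in VHL cells. BAG2 differed by 0.73 ± 0.06 in deprived and 0.83 ± 0.06 in control medium (limma adjusted p = 3.95e-07 and 1.29e-07). HSPH1 differed by 0.53 ± 0.07 and 0.65 ± 0.07 (1.77e-05 and 2.38e-06), DNAJB4 by 0.49 ± 0.07 and 0.65 ± 0.07, and HSPA2 by 0.50 ± 0.07 and 0.62 ± 0.07. As the array values show, 2 of the 3 deprived VHL arrays read higher for HSPH1 than any control Vec array, and the third lay among them. DNAJA1 went the other way, with VHL minus Vec at -0.56 ± 0.05 in deprived medium (limma adjusted p = 1.51e-06) and -0.23 ± 0.05 in control medium (0.00347). STIP1 differed by -0.39 and -0.21, FKBP4 by -0.39 and -0.27, PTGES3 by -0.23 and -0.23, and HSF1 by -0.17 and -0.27, all called in both media. With the mean of its probe sets HSF1 was at -0.04 in deprived medium and not called (adjusted p = 0.639). TRAP1 was the only mitochondrial member called between the lines, at 0.46 ± 0.05 and 0.39 ± 0.05 (limma adjusted p = 4.13e-06 and 1.86e-05).

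HSP90AA1, HSP90AB1, HSPD1 and HSPE1 were not called between the lines in either medium on their brightest probe sets. Without any 1 array 23 of the 25 calls in deprived medium and 19 of the 25 in control medium held. In deprived medium DNAJA2 lost its call without VHL replicate 3 or Vec replicate 1 (adjusted p up to 0.0955) and DNAJB5 without VHL replicate 1, VHL replicate 3 or Vec replicate 3 (up to 0.0698). In control medium BAG5 lost its call without VHL replicate 1 (0.055) and DNAJB6 without replicate 1 of either line (up to 0.0782). HSPA4 lost it without VHL replicate 1, VHL replicate 3 or Vec replicate 3 (up to 0.073), and HSPA4L without VHL replicates 1 or 2 or Vec replicates 2 or 3 (up to 0.137). BAG4 lost it without any control array but Vec replicate 1 (up to 0.167), and CDC37 without any but VHL replicate 1 (up to 0.158). The probe sets of HSPA4 disagreed: in control medium its brightest differed by 0.13 and another by -0.32 (limma adjusted p = 0.000452 over all probe sets), so no direction is given for it. ST13 was at -0.02 in control medium on its brightest probe set and at -0.42 on both others.

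The counts of listed partners called under deprivation are to be read against 11.6% of all genes in VHL cells and 4.18% in Vec cells. Of 12 measured subunits of the cytosolic chaperonin TRiC and its partner prefoldin, 1 fell in VHL cells, CCT6A at -0.26 ± 0.08 (limma adjusted p = 0.0421), and none was called in Vec cells, and an unadjusted p under 0.05 was reached by 6 of the 12 in VHL cells and 1 of the 12 in Vec cells (26.8% and 16.6% of all genes). Of 25 other cytosolic partners of HSP70 and HSP90, 2 rose and 2 fell in VHL cells and none was called in Vec cells (2 with an unadjusted p under 0.05). PPID, a prolyl isomerase that binds HSP90, fell by 0.28 ± 0.06 and TTC4, another HSP90 partner, by 0.22 ± 0.06, while BAG6 and DNAJB12, which deal with membrane proteins, rose by 0.18 ± 0.05 and 0.19 ± 0.05 (limma adjusted p between 0.0139 and 0.0325). Their median was 0.01 in VHL and 0.02 in Vec cells.

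Of 6 measured heat-induced genes that are no members, 2 fell in VHL cells and none was called in Vec cells (1 with an unadjusted p under 0.05). CACYBP, a partner of a ubiquitin ligase, fell by 0.20 ± 0.05 and SERPINH1, the collagen chaperone, by 0.21 ± 0.05 (limma adjusted p = 0.0142 and 0.0253). All 6 differed by less than 0 in both lines, with a median of -0.08 in each.

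The mitochondrial import motor, proteases and co-chaperones outside the list went up where they were called. Of 11 measured genes 3 rose in VHL cells and 2 in Vec cells, and none was called lower. The list median was -0.03 in VHL cells, where 6 of the 11 genes were below 0. In Vec cells it was 0.06, with 2 genes below 0. TIMM44, which ties HSPA9 to the import channel, rose by 0.40 ± 0.06 in VHL cells (limma adjusted p = 0.000778) and 0.40 ± 0.06 in Vec cells (0.00155). LONP1, the main protease of the matrix, rose by 0.20 ± 0.05 in VHL cells (0.0162) and 0.24 ± 0.05 in Vec cells (0.0142), and AFG3L2, a protease of the inner membrane, by 0.21 ± 0.06 in VHL cells (0.0296). HSPE1, the mitochondrial member that fell, thus moved opposite to the called genes of this list.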

How the data were processed

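RNA from 12 samples was labelled with biotin and hybridised to single-colour Affymetrix arrays, per the labels. The authors deposited 1 log2 value per probe set and array, between 3.26 and 14.79, with array medians between 7.12 and 7.18. How they summarised and normalised the probes is not given in the sources used here, and the values were used as deposited. Their precision is limited by the number of arrays.

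Of 22215 probe sets, 19064 name 1 gene in the platform annotation, 1043 several and 2108 none. Probe sets with several genes or none were not used. Symbols of 19052 probe sets were matched to RefSeq (GRCh38.p14). The probe set with the highest mean over all arrays stood for each of 11963 genes; 4310 genes, and 17 members, had more than 1. The 5 members HSPA2, HSPB3, DNAJB5, BAG4 and FKBP5 were dim (mean under 6.961).

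All 12 arrays were fitted together with 4 group means in limma 3.58.1 (R 4.3.3; lmFit and eBayes, two-sided), with Benjamini-Hochberg adjustment over all genes for each comparison and a threshold of 0.05. The script was tested on simulated data. SE and 95% intervals come from that fit. Tables and figures were made with Python 3.11.15, pandas 2.3.3 and matplotlib 3.10.9. Same-numbered replicates of different groups had residual correlations between -0.268 and 0.235, so they were treated as unpaired.

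The members and gene lists were chosen with earlier results of these data known. Array values were given for the members called with groups that do not overlap, up to 12 in each deprivation comparison and 8 in each comparison of lines by size, and, whatever their call, for HSP90AA1, HSP90AB1, HSPD1, HSPE1 and HSF1. CRYAB and HSPA9 under deprivation were added after their values were seen. Of each list of partners, up to 4 called genes with the smallest adjusted p were named. Alternatives were quantile normalization, centring, leaving out dim genes, the mean of all probe sets of a gene, leaving out probe sets of type x_at or s_at, a variance trend with robust moderation, a replicate block, a fit on the compared groups only and leaving out each array. Testing each probe set on its own was chosen after seeing the data.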

Additional observations from a re-analysis of the deposited data

How the results depend on the processing

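With 3 arrays a group, small falls depend on single arrays. Leaving out 1 array at a time, members called lower under deprivation numbered 13 to 15 in VHL cells and 5 to 8 in Vec cells, members called higher 0 to 1 and 0, and all genes called 764 to 1302 and 253 to 303. Class medians then ran between -0.4093 and -0.3545 (inducible), -0.0506 and 0.001 (constitutive) and -0.0631 and -0.0474 (mitochondrial) in VHL cells, and between -0.2834 and -0.2521, -0.074 and -0.0344, and -0.0615 and 0.0181 in Vec cells. In the interaction 0 members and 11 to 16 genes were called. Between lines, 13 to 15 members were higher, 10 to 12 lower and 5226 to 5416 genes called in deprived medium, and 11 to 13, 9 to 10 and 5085 to 5274 in control medium.

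Leaving out x_at and s_at probe sets, which may bind several transcripts, leaves 8369 genes. CHORDC1, BAG3, DNAJB1 and HSPA2, among others, have only such probe sets and were then not measured, so counts and medians cover fewer members. Of the members still measured, 8 fell in VHL and 4 in Vec cells, with 771 and 233 genes called. The class medians were -0.3521 (inducible), -0.0882 (constitutive) and 0.0812 (mitochondrial) in VHL cells, and 0.1032 for mitochondrial members in Vec cells. The mitochondrial medians were then those of HSPA9 and TRAP1 only. Between lines 8 members were then higher in deprived and 8 in control medium, with 3505 and 3427 genes called, and HSPA4 turned to -0.323 in control medium. With the mean of all probe sets of a gene the medians in VHL cells were -0.3682, -0.0544 and -0.1225, in Vec cells -0.3109 (inducible) and -0.0929 (constitutive), and HSF1 in Vec cells turned to -0.0297. Centring gave medians in VHL cells of -0.435, -0.0559 and -0.0871, and quantile normalization -0.0183 for mitochondrial members. With dim genes left out (7178 genes tested), the constitutive class lost HSPA2, HSPB3, DNAJB5, BAG4 and FKBP5. Its median in VHL cells was then 0.0055. In this setting 770 genes were called in Vec cells and 29 in the interaction, and 2 members were higher in Vec cells, HSPA9 and BAG5. The variance trend with robust moderation gave the same 2, and in the interaction 1 member (DNAJA1) and 45 genes. A fit on the compared groups only, with fewer arrays to estimate the spread, called 835 genes in VHL cells, 311 in Vec cells and 8 members lower in Vec cells. The 1 member called higher in VHL cells, HSF1, became 0 under quantile normalization, centring, the mean of probe sets, no x_at or s_at probe sets, the variance trend, the replicate block, the compared groups only and tests of single probe sets.

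With the replicate number as a block, 17 members fell in VHL cells and 11 in Vec cells, with 1326 and 434 genes called. The calls of DNAJB4 (adjusted p = 0.0576) and HSP90AA1 (0.0549) in Vec cells, HSF1 in VHL cells (0.0545) and CDC37 between lines in control medium (0.0564) did not pass, which left 14 members higher there. Of the 12 arrays 5 correlated best with an array of their own number, and no pairing was assumed. Where no further cause is named above, the cause was not tested.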
